A study of Schizosaccharomyces pombe with 6 samples.

Results

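Start sites of 9 genes of glucose repression were followed in fission yeast, *Schizosaccharomyces pombe*, lacking the chromatin remodellers Fft2 and Fft3. They are 9 of the 12246 protein-coding and long non-coding RNA genes of the annotation, chosen by name for what they encode. Capped RNA 5′ ends were sequenced with cap analysis of gene expression (CAGE), in which each sequenced tag marks the base where a transcript starts. The fft2 fft3 double mutant and the wild type had 3 libraries each. Both strains were h- and carried leu1-32 and ura4-D18, together with an ade6 allele written ade6M210 for the double mutant and ade6-M210 for the wild type. The double mutant also carried fft2::kan and fft3::hph. Each genotype was 1 strain, taken in mid-log phase from YES cultures shaken at 180 rpm and held at 30 °C. The labels speak of duplicate cultures but the series of triplicates, so libraries may share a culture and p-values measure the spread between libraries, which may be technical.

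Glucose keeps genes for other carbon sources off in fission yeast. A glucose receptor and adenylate cyclase raise cAMP, which activates protein kinase A. That kinase holds back the zinc-finger activator Rst2, while the zinc-finger repressor Scr1 and the paired co-repressors Tup11 and Tup12 keep target promoters closed. The best studied target is fbp1, where long non-coding RNAs start upstream of the coding transcript and are known to precede its induction when glucose runs out.

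The enzymes are fructose-1,6-bisphosphatase of gluconeogenesis (fbp1, SPBC1198.14C, chrII:197660-199369, minus strand), the secreted invertase that splits sucrose (inv1, SPCC191.11, chrIII:1723434-1726164, plus strand) and glycerol dehydrogenase (gld1, SPAC13F5.03C, chrI:2174641-2176572, minus strand). To these come the mitochondrial glycerol-3-phosphate dehydrogenase (gut2, SPCC1223.03C, chrIII:1840594-1843256, minus strand) and the alpha-glucosidase that splits maltose (agl1, SPAPB24D3.10C, chrI:2967916-2970988, minus strand). The regulators are rst2 (SPAC6F12.02, chrI:1309681-1313429, plus strand), scr1 (SPBC1D7.02C, chrII:1752093-1755619, plus strand), tup11 (SPAC18B11.10, chrI:299278-301796, minus strand) and tup12 (SPAC630.14C, chrI:374316-377137, minus strand). Annotated leaders, from the start of the transcript to the start codon, are 1299 bp in rst2 and 1496 bp in scr1, 872 bp in inv1, 620 bp in gut2, 227 bp in fbp1, 212 bp in gld1, 85 bp in tup11 and 21 bp in tup12. For agl1 the annotation gives no leader.

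Libraries held 19861903 to 23242895 tags in the double mutant and 12681900 to 20073004 in the wild type, where replicate 2 was the shallowest. Levels are in TPM, the deposited unit, in which T stands for tags and the library total is the base, so 1 tag was worth 0.0430 to 0.0503 TPM in the double mutant and 0.0498 to 0.0789 TPM in the wild type. As a check of the labels, tags inside the coding part of fft2 gave 0.172, 0.0862 and 0.101 TPM in the double mutant, against 6.28, 4.65 and 4.40 TPM in the wild type. For fft3 they gave 0.215, 0.474 and 0.554 TPM in the double mutant, against 2.84, 1.498 and 3.34 TPM in the wild type. Both targeted genes were low in every library labelled as mutant.

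The start sites that carry most of the results are shown first, so that their sequence can be set beside their levels. Positions are in bp from the annotated start of the gene, negative upstream and with the annotated start at 0. Each line has 60 bases, 5′ to 3′ on the strand of the start, of which 45 lie before the start base and 14 after it. Capitals mark the start base with the base before it, and any TATA whose first base lies 40 to 22 bp before the start base.
fbp1 start at -1069 (chrII:200424-200483, minus strand): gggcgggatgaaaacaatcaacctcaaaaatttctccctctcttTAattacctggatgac
fbp1 start at -820 (chrII:200175-200234, minus strand): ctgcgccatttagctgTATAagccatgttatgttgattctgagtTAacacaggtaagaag
fbp1 start at -42 (chrII:199397-199456, minus strand): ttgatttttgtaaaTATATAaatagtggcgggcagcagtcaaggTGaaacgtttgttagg
inv1 start at 0 (chrIII:1723389-1723448, plus strand): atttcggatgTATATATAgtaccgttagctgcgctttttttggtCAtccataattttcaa
gld1 start at 0 (chrI:2176558-2176617, minus strand): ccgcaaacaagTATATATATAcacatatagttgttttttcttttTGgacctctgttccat
gld1 start at -417 (chrI:2176975-2177034, minus strand): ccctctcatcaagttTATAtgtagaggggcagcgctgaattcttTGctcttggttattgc
gut2 start at 0 (chrIII:1843242-1843301, minus strand): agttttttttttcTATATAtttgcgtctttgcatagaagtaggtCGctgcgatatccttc
scr1 start at 0 (chrII:1752048-1752107, plus strand): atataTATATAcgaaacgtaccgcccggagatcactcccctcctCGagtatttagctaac

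All 8 of these starts have a pyrimidine followed by a purine start base, as have 97.4% of the 5916 clusters that average 1 TPM or more in coding start windows. Among the other starts of the 9 genes that reached 1 TPM in either group, this step is missing at rst2 -1724, -1625 and -1495 and at tup12 791. TATA stands at that distance in 7 of the 8 lines shown, all but fbp1 at -1069, and in 1479 of those 5916 clusters. Over all starts of the 9 genes that reached 1 TPM in either group, it stands at 6 of 10 in the coding start windows. Those without it are gut2 at -268 and the annotated starts of rst2, tup11 and tup12. A match is a description of letters, not a measured site.

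In the double mutant the coding starts of fbp1, gld1 and inv1 were many-fold higher, that of gut2 was lower, and those of the regulators moved little or not past the test. The coding-start level of a gene adds up its same-strand tag clusters in a window that opens 500 bp before the annotated start and closes at the start codon, or 100 bp past the annotated start if that lies further on. It was tested with limma on log2(TPM + 0.5) wherever the 6 libraries averaged 1 TPM or more. Of the 9 genes 8 reached that filter, and 4 were higher (fbp1, gld1, inv1 and tup11), 1 lower (gut2) and 3 not past the threshold (rst2, scr1 and tup12). Long non-coding RNA genes were fitted together with the coding genes, in windows that close 100 bp past their annotated start. Among all 5587 genes of both kinds tested 33.4% were called, 24.3% higher and 9.07% lower. Because fbp1, gld1 and inv1 stood under 1 TPM in the wild type, they reached the filter only through the double mutant. The median log2 fold change was 0.13 over all genes and -0.02 after TMM scaling, and the calls over all genes were 1357 higher and 507 lower, or 1022 higher and 855 lower with TMM scaling.

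**Figure D1:**
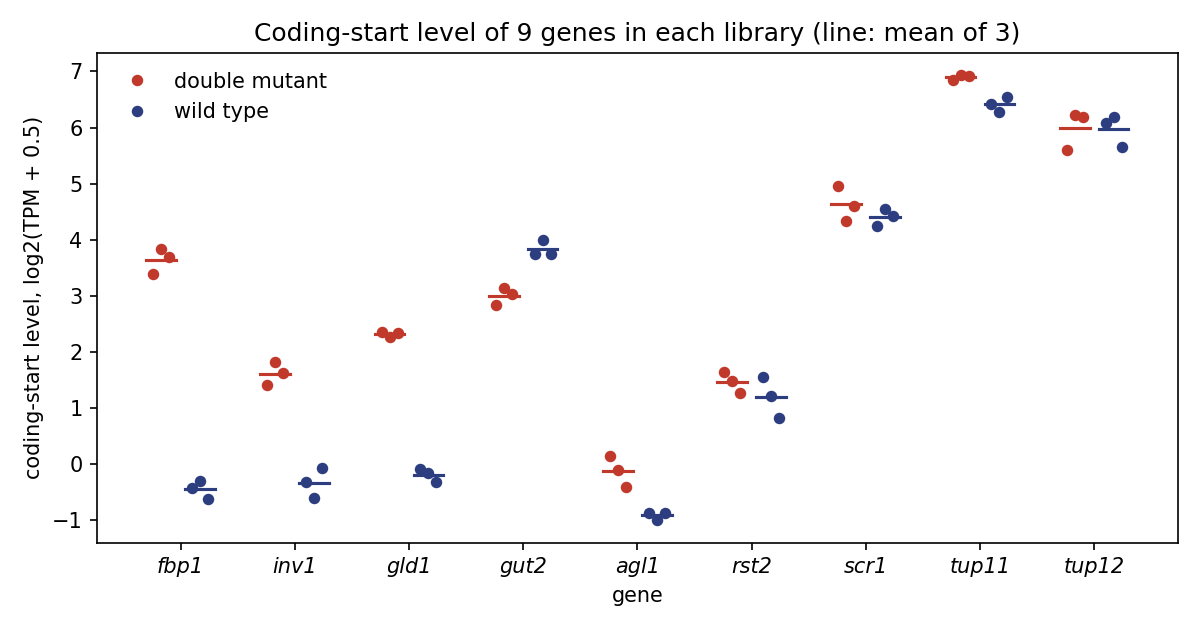
Coding-start level of the 9 genes, as log2(TPM + 0.5), with the 3 double-mutant libraries left of the 3 wild-type libraries in each gene. Points are libraries and lines are group means. For fbp1, gld1 and inv1 every double-mutant point lies above every wild-type point, for gut2 every one lies below, and for rst2, scr1 and tup12 the groups overlap.

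The coding start of fbp1 had 10.02, 13.7 and 12.4 TPM in the double mutant, against 0.249, 0.315 and 0.152 TPM in the wild type. The groups are far apart, with 798 tags in the double mutant and 12 in the wild type. The mean was 12.1 ± 1.87 TPM in the double mutant and 0.239 ± 0.0823 TPM in the wild type (SD, n = 3 each), a 50.5-fold ratio of means. The 95% counting interval of the ratio of tag rates runs from 30.0 to 102. On the tested scale the log2 fold change was 4.08 (SE 0.18, limma with Benjamini-Hochberg adjusted p = 5.36e-06). In the order of fold changes over the 5587 genes fbp1 stood at place 16. Since whole cultures were measured, more cells with the RNA and more RNA per cell in the double mutant cannot be told apart.

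Nearly all of that level came from 1 cluster, whose start base lies at -42, or -269 from the start codon. Among the sequences shown its line has overlapping TATA letters, as have those of inv1, gld1, gut2 and scr1 at 0. This cluster (chrII:199398-199410, minus strand) had 9.77, 13.5 and 12.2 TPM in the double mutant, against 0.249, 0.315 and 0.152 TPM in the wild type. Tested as a single cluster its log2 fold change was 4.06 (SE 0.18, limma with Benjamini-Hochberg adjusted p = 1.20e-06). Over all 11250 clusters tested 46.2% were called, 36.9% higher and 9.36% lower, and with TMM scaling 2847 were higher and 2263 lower. Like the coding-start levels, the tested clusters of fbp1, gld1 and inv1 in those windows, and the fbp1 start at -820, reached the filter only through the double mutant.

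The upstream RNAs of fbp1 did not all follow the coding start. Starts more than 500 and up to 2000 bp upstream gave 6.45, 7.11 and 6.49 TPM in the double mutant, against 2.14, 1.81 and 2.28 TPM in the wild type. The groups do not overlap, and the log2 fold change of the sum was 1.48 (SE 0.15, limma with Benjamini-Hochberg adjusted p = 1.47e-05). Of the 9 genes only fbp1 reached the filter for this class, in which 61.2% of 794 genes were called, 49.6% higher and 11.6% lower. The median log2 fold change of those genes was 0.55, and scaling on these upstream levels themselves by TMM gave 262 higher and 250 lower, with fbp1 still higher.

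Of the 8 upstream starts 2 reached 1 TPM in either group. The farther one, at -1069, had 0.559, 0.948 and 1.41 TPM in the double mutant, against 0.697, 1.03 and 1.32 TPM in the wild type. The groups overlap. With the filter lowered to 0.25 TPM, which this cluster passes, its log2 fold change was -0.06 (SE 0.25, limma with Benjamini-Hochberg adjusted p = 0.869). The nearer one, at -820, had 4.35, 4.31 and 3.42 TPM in the double mutant, against 1.05, 0.552 and 0.708 TPM in the wild type. Here every double-mutant library stood above every wild-type library, with a log2 fold change of 1.85 (SE 0.20, limma with Benjamini-Hochberg adjusted p = 7.07e-05). This start has TATA letters, first base at -29 from it, and that at -1069 has none in that range. The starts at -985 and -958, which lie between them, held 2 and 15 tags in the double mutant and 2 and 7 in the wild type, and one farther out, at -1311, held none in the double mutant and 2 in the wild type.

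Lower starts between these and the coding start, singled out after their values were seen, were found mostly in the double mutant. The start at -769 had 0.559, 0.776 and 0.755 TPM in the double mutant, against 0.0996, 0 and 0.0506 TPM in the wild type. The start at -503 had 0.559, 0.776 and 0.705 TPM in the double mutant, against 0.0498, 0.0789 and 0 TPM in the wild type. With 46 and 45 tags in the double mutant against 3 and 2 in the wild type, the ratios of tag rates were 12.1 (95% counting interval 3.90 to 61.0) and 17.8 (4.66 to 152). Smaller ones at -548 and -451 held 4 and 9 tags in the double mutant and none in the wild type. Among the starts that reached 1 TPM the ratio was 0.942 (0.643 to 1.38) at -1069, 5.07 (3.65 to 7.20) at -820 and 51.7 (29.5 to 101) at -42. These intervals do not overlap, but they cover counting error only and not the spread between libraries. The wide intervals at -769 and -503 overlap those at -820 and -42. An order of the starts by ratio was not tested across libraries.

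**Figure D2:**
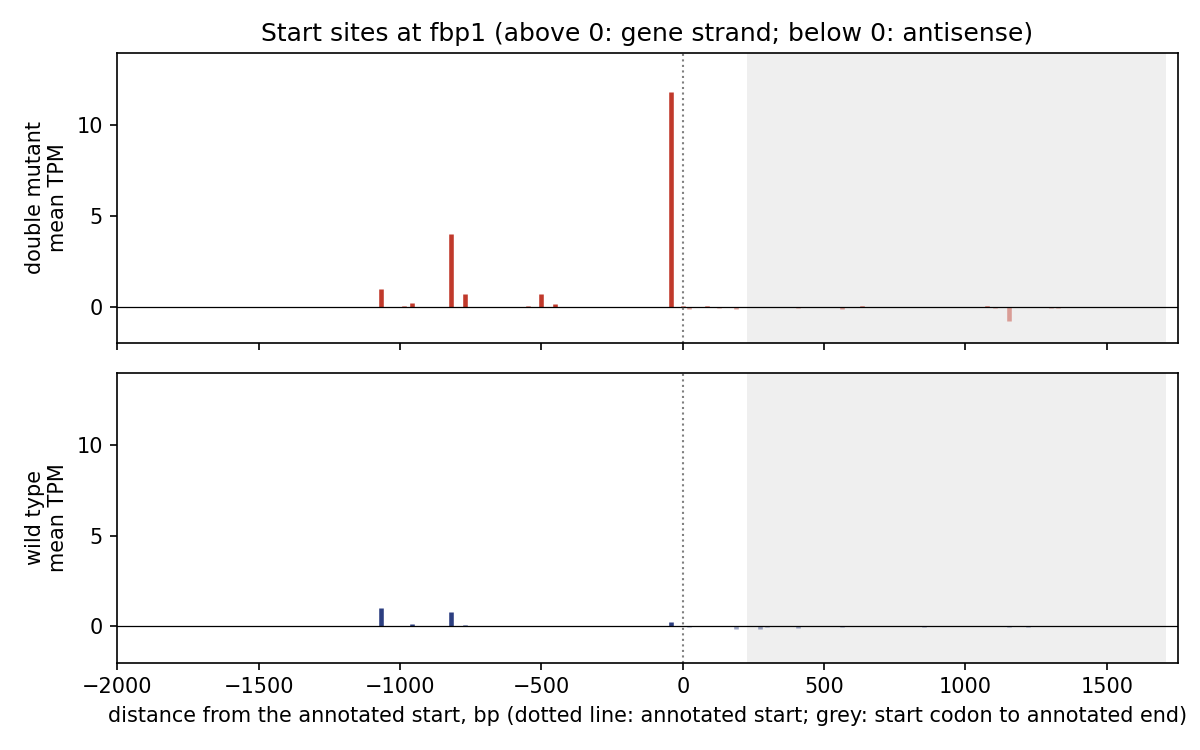
Mean level in TPM of each start site at fbp1 against its distance in bp from the annotated start, with the double mutant above and the wild type below it. Bars above 0 are on the gene's strand and bars below 0 are antisense. The start at -42 is the tallest in the double mutant at 11.8 TPM and has 0.239 TPM in the wild type, whereas the start at -1069 has 0.972 TPM in the double mutant and 1.01 TPM in the wild type.

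Most fbp1 tags began at the coding start in the double mutant and upstream in the wild type. Of the fbp1 tags that began upstream or in the coding start window, 39.2%, 34.2% and 34.3% began upstream in the double mutant, against 89.6%, 85.2% and 93.8% in the wild type. The means were 35.9% ± 2.85 in the double mutant and 89.5% ± 4.28 in the wild type (SD, n = 3 each), a difference of -53.6 percentage points. An exact two-sided permutation test over the libraries gave p = 0.1, the smallest that 3 against 3 allow. The difference was -52.9 points when the coding start window reached only 250 bp upstream.

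Known elements of the fbp1 promoter were looked for in the 2000 bp before the annotated start, on both strands. TGACGT, the core of the element bound by Atf1 and Pcr1, lies at -940 on the opposite strand, between the starts at -958 and -820. CCCCTC, the stress-response-like letters bound by Rst2, lies at -307, between the starts at -451 and -42. They are shown with their neighbouring bases to place these letters among the starts, and capitals mark the letters searched.
fbp1 CCCCTC (chrII:199654-199693, minus strand): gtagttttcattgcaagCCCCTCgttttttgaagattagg
fbp1 TGACGT on the opposite strand (chrII:200287-200326, minus strand): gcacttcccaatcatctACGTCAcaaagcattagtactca

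Of all 5112 such windows 27.6% hold TGACGT and 16.7% hold CCCCTC, against 6 and 3 of the 9 genes. CCCCTC is found before fbp1, gld1 and scr1, and TGACGT before fbp1, inv1, gld1, gut2, rst2 and scr1. None of these motifs contains another, and CCAAT, the box bound by the Php complex, is in 98.7% of windows and before all 9 genes.

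The glycerol dehydrogenase gene gld1 had 4.60, 4.31 and 4.53 TPM at its coding start in the double mutant, against 0.448, 0.394 and 0.304 TPM in the wild type. All double-mutant libraries stood above all wild-type ones, and the mean was 4.48 ± 0.153 TPM in the double mutant and 0.382 ± 0.0732 TPM in the wild type (SD, n = 3 each). The log2 fold change was 2.50 (SE 0.15, limma with Benjamini-Hochberg adjusted p = 1.11e-05). This level had 2 sources. The start at -417, which lies within the 3′ end of the neighbouring gene vta1 on the same strand, had 3.05, 2.67 and 2.37 TPM in the double mutant, against 0.0996, 0.158 and 0.0506 TPM in the wild type (log2 fold change 2.41, SE 0.16, limma with Benjamini-Hochberg adjusted p = 5.11e-06). The start at the annotated position had 1.33, 1.29 and 1.91 TPM in the double mutant, against 0.149, 0.237 and 0.0506 TPM in the wild type. Both were higher in every double-mutant library. Without the one at -417, in a window of 250 bp, the log2 fold change of gld1 was 1.54 (limma with Benjamini-Hochberg adjusted p = 0.0004). Farther upstream and also within vta1, the start at -1725 had 0.860, 1.03 and 1.16 TPM in the double mutant, against 1.54, 2.29 and 1.26 TPM in the wild type. The double-mutant values lie below the wild-type ones, but the log2 fold change of -0.51 (SE 0.21) did not pass the test (limma with Benjamini-Hochberg adjusted p = 0.0715). It passed with TMM scaling (log2 fold change -0.75, limma with Benjamini-Hochberg adjusted p = 0.0198) and without wild-type replicate 3 (adjusted p = 0.0417).

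The invertase gene inv1 had 2.151, 3.02 and 2.57 TPM at its coding start in the double mutant, against 0.299, 0.158 and 0.455 TPM in the wild type. The groups do not overlap, and the log2 fold change was 1.94 (SE 0.20, limma with Benjamini-Hochberg adjusted p = 0.000184). The cluster at the annotated start held most of it, with 1.85, 2.72 and 2.06 TPM in the double mutant and 0.149, 0 and 0.152 TPM in the wild type (log2 fold change 2.17, SE 0.19, limma with Benjamini-Hochberg adjusted p = 2.08e-05). Its line among the sequences shown has a run of overlapping TATA letters. Further upstream, at -599, inv1 had a start with 1.12, 2.07 and 1.41 TPM in the double mutant, against 0.697, 0.237 and 0.253 TPM in the wild type. It stood under the filter of 1 TPM, and with a filter of 0.25 TPM its log2 fold change was 1.19 (SE 0.25, limma with Benjamini-Hochberg adjusted p = 0.00257). At that filter 46.3% of 25487 clusters were called.

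The glycerol-3-phosphate dehydrogenase gene gut2 went the other way. It had 6.63, 8.32 and 7.70 TPM at its coding start in the double mutant, against 12.95, 15.4 and 12.95 TPM in the wild type. Every double-mutant library stood below every wild-type library, with a mean of 7.55 ± 0.857 TPM in the double mutant and 13.8 ± 1.40 TPM in the wild type (SD, n = 3 each). The log2 fold change was -0.83 (SE 0.15, limma with Benjamini-Hochberg adjusted p = 0.00484). Both of its starts that reached 1 TPM were lower. That at the annotated start had a log2 fold change of -0.79 (SE 0.16) and that at -268 one of -0.83 (SE 0.17), with limma and Benjamini-Hochberg adjusted p-values of 0.00359 and 0.00414. Of the 5 enzymes gut2 was the only one with over 1 TPM at its coding start in the wild type.

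The alpha-glucosidase gene agl1 was nearly silent at its coding start. It had 0.602, 0.431 and 0.252 TPM in the double mutant, against 0.0498, 0 and 0.0506 TPM in the wild type. All double-mutant values lie above the wild-type ones, but the level was under the filter and was not tested. Its 29 tags in the double mutant and 2 in the wild type gave a ratio of means of 12.8, with a 95% counting interval of the ratio of tag rates from 2.91 to 99.3.

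Of the 4 regulators only tup11 passed the test at its coding start. The activator gene rst2 had 2.62, 2.28 and 1.91 TPM in the double mutant, against 2.44, 1.81 and 1.26 TPM in the wild type. The groups overlap, and the log2 fold change of 0.27 (SE 0.22) did not pass the test (limma with Benjamini-Hochberg adjusted p = 0.390). The repressor gene scr1 had 30.7, 19.7 and 23.7 TPM in the double mutant, against 18.4, 22.9 and 20.8 TPM in the wild type. The groups overlap here too, with a log2 fold change of 0.23 (SE 0.19, limma with Benjamini-Hochberg adjusted p = 0.377).

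The co-repressor gene tup11 had 114, 122 and 121 TPM in the double mutant, against 85.3, 77.1 and 92.6 TPM in the wild type. The groups do not overlap, and the log2 fold change was 0.48 (SE 0.11, limma with Benjamini-Hochberg adjusted p = 0.0135). That call rests on the scaling and on single libraries: it ended with TMM scaling (log2 fold change 0.33, adjusted p = 0.0503 in limma), without double-mutant replicate 2 (adjusted p = 0.0563) and without double-mutant replicate 3 (adjusted p = 0.0560). Its paralog tup12 had 47.8, 74.2 and 72.0 TPM in the double mutant, against 67.3, 72.3 and 50.04 TPM in the wild type. These overlap, and the log2 fold change was 0.02 (SE 0.21, limma with Benjamini-Hochberg adjusted p = 0.948).

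Farther upstream the regulators had few starts of their own. For rst2 the starts at -1724, -1625 and -1495 lie inside the neighbouring gene cdc48 on the same strand, and were therefore not counted as upstream RNAs of rst2. They had means of 1.10, 1.06 and 1.36 TPM in the double mutant and 0.475, 0.502 and 0.418 TPM in the wild type. For scr1 the upstream sum was 0.615 ± 0.140 TPM in the double mutant and 0.595 ± 0.0372 TPM in the wild type (SD, n = 3 each). For tup11 none was counted, and for tup12 there were 5 tags in the double mutant and none in the wild type.

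Within the genes, downstream of the coding start window, the regulators scr1 and rst2 and the enzymes gut2 and agl1 had starts on the gene's own strand that were close to absent from the wild type. This class of intragenic starts was added after the values were seen. The inner starts of these genes that were tested stood under 1 TPM in the wild type and reached the filter only through the double mutant. None of the lines below has TATA in the range searched, which was found at 0 of the 10 intragenic starts that reached 1 TPM in either group.
scr1 start at 1514 (chrII:1753562-1753621, plus strand): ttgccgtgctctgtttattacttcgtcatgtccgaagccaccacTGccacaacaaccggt
scr1 start at 2734 (chrII:1754782-1754841, plus strand): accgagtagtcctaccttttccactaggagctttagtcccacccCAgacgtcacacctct
rst2 start at 1479 (chrI:1311115-1311174, plus strand): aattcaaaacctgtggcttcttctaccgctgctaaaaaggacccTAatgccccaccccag
gut2 start at 1865 (chrIII:1841377-1841436, minus strand): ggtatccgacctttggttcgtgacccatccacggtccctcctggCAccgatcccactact
agl1 start at 2416 (chrI:2968558-2968617, minus strand): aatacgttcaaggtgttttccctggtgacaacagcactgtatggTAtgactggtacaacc
agl1 start at 2533 (chrI:2968441-2968500, minus strand): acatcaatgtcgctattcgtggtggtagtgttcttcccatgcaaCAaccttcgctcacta

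The largest of them lies just inside the coding part of scr1, at 1514 from the annotated start and 18 bp past the start codon. It had 7.10, 6.68 and 5.39 TPM in the double mutant, against 0.349, 0.237 and 0.658 TPM in the wild type. The groups do not overlap, with a log2 fold change of 2.93 (SE 0.21, limma with Benjamini-Hochberg adjusted p = 7.08e-06). The next ATG in the frame of scr1 after that start base is codon 118 of 565, with 448 codons from there to the end, so an RNA from this start lacks the annotated start codon. The other start of scr1, at 2734, had 4.22, 4.40 and 3.17 TPM in the double mutant, against 0, 0.237 and 0.202 TPM in the wild type (log2 fold change 2.79, SE 0.21, limma with Benjamini-Hochberg adjusted p = 8.45e-06). At scr1 the annotated start still stood highest, with a mean of 22.8 TPM in the double mutant and 19.4 TPM in the wild type.

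In rst2 the start at 1479, 180 bp past the start codon, reached the level of the annotated start in the double mutant. It had 2.32, 2.07 and 1.71 TPM in the double mutant, against 0.0996, 0.158 and 0.101 TPM in the wild type (log2 fold change 2.03, SE 0.16, limma with Benjamini-Hochberg adjusted p = 1.16e-05). The annotated start of rst2 had 2.24, 1.94 and 1.76 TPM in the double mutant, against 2.44, 1.58 and 1.06 TPM in the wild type. In the double mutant these starts had alike values, and in the wild type the inner one was far lower. The next in-frame ATG after it is codon 289 of 567.

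In gut2 the inner start and the annotated start moved in opposite directions. The inner one, at 1865, had 5.16, 3.84 and 3.63 TPM in the double mutant, against 0.448, 0.237 and 0.405 TPM in the wild type, with a log2 fold change of 2.44 (SE 0.19, limma with Benjamini-Hochberg adjusted p = 1.10e-05). It lies 1245 bp past the start codon, at 63.8% of the coding length. The annotated start of gut2 had 5.77, 7.50 and 6.70 TPM in the double mutant, against 11.1, 13.3 and 11.1 TPM in the wild type.

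In agl1 3 of 20 inner starts reached 1 TPM, all in the double mutant and each above the coding start there. The start at 2416 had 4.56, 4.09 and 4.38 TPM in the double mutant, against 0.149, 0.158 and 0.0506 TPM in the wild type (log2 fold change 2.97, SE 0.16, limma with Benjamini-Hochberg adjusted p = 1.93e-06). The start at 2533 had 2.93, 2.41 and 2.06 TPM in the double mutant, against 0.0498, 0.0789 and 0.0506 TPM in the wild type (log2 fold change 2.40, SE 0.16, limma with Benjamini-Hochberg adjusted p = 5.48e-06). The one at 2286 had 1.76, 1.55 and 2.27 TPM in the double mutant and no tag in the wild type. Set against a floor of 3 tags over the wild-type group it was at least 32.6-fold higher. These 3 stand at 78.6% to 87.0% of the coding length. The other 17, spread from 315 to 2212, summed to 1.36 TPM in the double mutant and 0.317 TPM in the wild type.

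**Figure D3:**
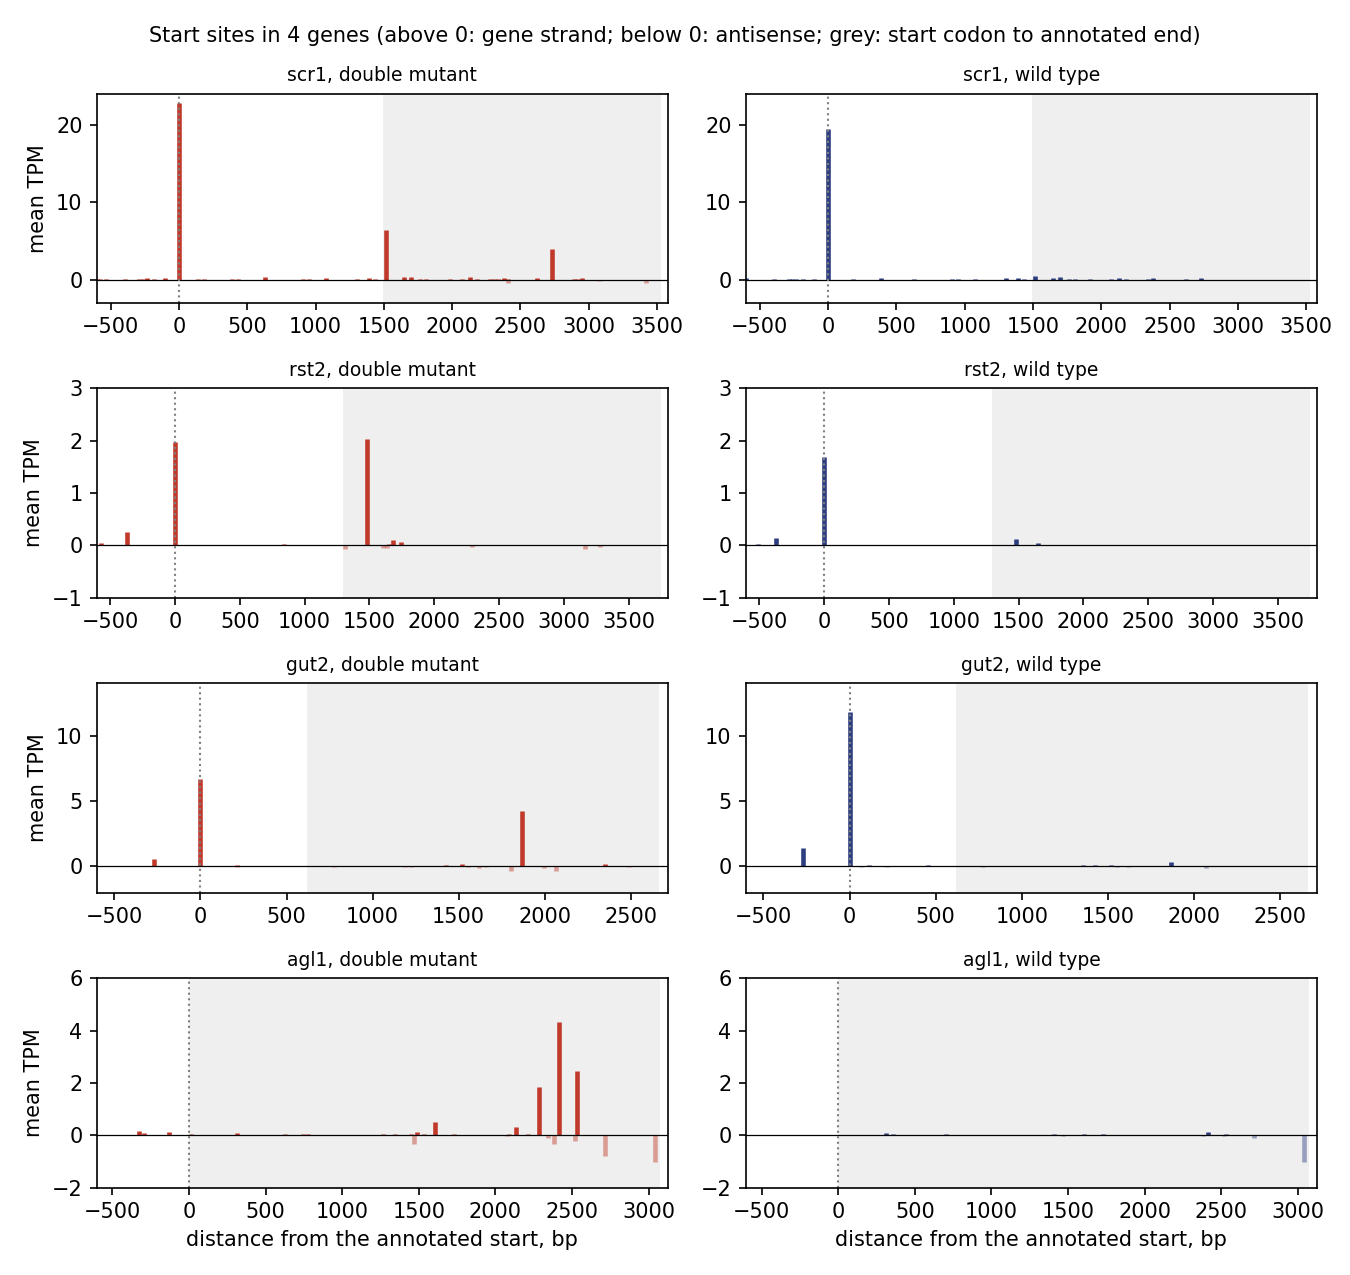
Mean level in TPM of each start site in scr1, rst2, gut2 and agl1 against its distance in bp from the annotated start, with the double mutant in the left panels and the wild type in the right panels. Bars above 0 are on the gene's strand, bars below 0 are antisense, the dotted line is the annotated start and grey runs from the start codon to the annotated end. In the double mutant bars stand within the grey part, such as 6.39 TPM at 1514 in scr1, where the wild type has 0.414 TPM.

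Smaller inner starts were found in inv1, gld1 and tup12. That of inv1 at 1394 had 1.55, 1.68 and 1.11 TPM in the double mutant, against 0.349, 0.158 and 0.101 TPM in the wild type. That of gld1 at 452 had 0.990, 1.12 and 1.01 TPM in the double mutant, against 0.299, 0 and 0.304 TPM in the wild type. In both the groups do not overlap. The start of tup12 at 791 had 1.98, 1.55 and 2.32 TPM in the double mutant, against 0.697, 0.946 and 1.47 TPM in the wild type. Its log2 fold change of 0.69 (SE 0.22, limma with Benjamini-Hochberg adjusted p = 0.0334) did not pass with TMM scaling or without double-mutant replicate 1, double-mutant replicate 3, wild-type replicate 1 or wild-type replicate 2.

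Summed per gene, intragenic levels were higher in all 8 genes tested, of which agl1, rst2, inv1 and gut2 stood under 1 TPM in the wild type and reached the filter only through the double mutant. Among all 2488 genes tested 75.3% were called, 72.5% higher and 2.77% lower, so most genes moved this way. The sum for agl1 was 10.5, 9.57 and 10.1 TPM in the double mutant, against 0.548, 0.789 and 0.152 TPM in the wild type (log2 fold change 3.46, SE 0.22, limma with Benjamini-Hochberg adjusted p = 1.45e-10). Then came scr1 with a log2 fold change of 2.46, gut2 with 2.14, rst2 with 1.999, inv1 with 1.66, gld1 with 1.31, tup11 with 0.85 and tup12 with 0.78, beside a median of 0.81 over all genes tested. With TMM scaling on intragenic levels 752 genes were higher and 719 lower, and 5 of the 9 genes were called, all higher. There tup11 did not pass, tup12 had a log2 fold change of -0.091 and rst2 fell under the filter. The ninth gene, fbp1, had 5 intragenic tags in the double mutant and 3 in the wild type.

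Antisense starts, on the opposite strand between the annotated ends, reached the filter in 3 genes and were higher in all 3, of which fbp1 and tup11 stood under 1 TPM in the wild type and reached it only through the double mutant. Over all 1872 genes tested 85.8% were called, 83.8% higher and 2.03% lower, and the median log2 fold change was 1.67. The antisense level of tup11 was 1.98, 2.155 and 2.32 TPM in the double mutant, against 0.448, 0.394 and 0.607 TPM in the wild type (log2 fold change 1.43, SE 0.17, limma with Benjamini-Hochberg adjusted p = 7.27e-06). Most of it came from the start at 949, with 1.20, 1.38 and 1.61 TPM in the double mutant, against 0.349, 0.237 and 0.607 TPM in the wild type, which was under the filter of 1 TPM as a single cluster. That of fbp1 was 1.59, 1.59 and 1.86 TPM in the double mutant, against 0.498, 0.789 and 0.354 TPM in the wild type (log2 fold change 1.08, SE 0.19, limma with Benjamini-Hochberg adjusted p = 0.000211). That of agl1 was 2.97, 2.80 and 2.82 TPM in the double mutant, against 0.897, 1.498 and 1.11 TPM in the wild type (log2 fold change 1.03, SE 0.18, limma with Benjamini-Hochberg adjusted p = 0.00021).

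All 3 log2 fold changes were smaller than the median of this class. With TMM scaling on the antisense levels themselves, 531 genes were higher and 651 lower, and agl1 turned to a log2 fold change of -0.60, whereas TMM scaling from the coding-start levels left agl1 at 0.90, fbp1 at 0.98 and tup11 at 1.33. In agl1 the antisense start near its 3′ end, at 3040, had means of 1.02 TPM in the double mutant and 1.01 TPM in the wild type, with a log2 fold change of 0.02 (SE 0.17, limma with Benjamini-Hochberg adjusted p = 0.947). The remaining antisense starts of agl1 summed to 1.85 TPM in the double mutant and 0.163 TPM in the wild type. In fbp1 none of 16 antisense clusters reached 1 TPM in either group.

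**Figure D4:**
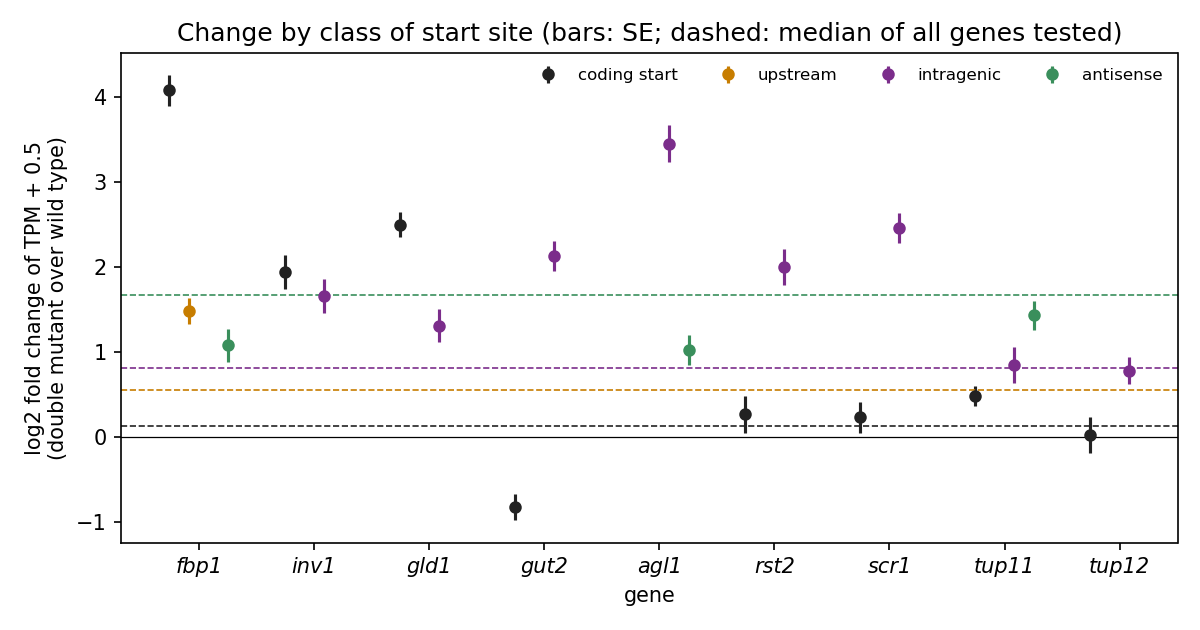
Log2 fold change of TPM + 0.5, double mutant over wild type, for each of the 9 genes and each class of start site that reached the filter. Bars are the SE of the limma fit and dashed lines are the medians over all genes tested in that class, 0.13 for coding starts, 0.55 for upstream, 0.81 for intragenic and 1.67 for antisense starts. At fbp1 the coding start stands at 4.08, the upstream sum at 1.48 and the antisense sum at 1.08, and gut2 has its coding start at -0.83 and its intragenic sum at 2.14.

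Genes of the pathway around these 9 were read from lists written with earlier results known. Their counts stand beside the 24.3% higher and 9.07% lower of all 5587 genes tested, long non-coding RNA genes included. No difference from those shares was tested. The glucose sensing branch, from the receptor gene git3 through the G protein and adenylate cyclase to protein kinase A, had 13 genes, of which 12 were tested, 1 was higher and none lower. The higher one was sck1, a kinase gene whose extra copies are known to make up for lost protein kinase A, with 47.7, 39.2 and 38.7 TPM in the double mutant against 29.7, 27.0 and 29.9 TPM in the wild type (log2 fold change 0.52, SE 0.13, limma with Benjamini-Hochberg adjusted p = 0.0192), a call that ended with TMM scaling (adjusted p = 0.0755 in limma). With TMM scaling none was higher and 3 were lower. In its window the catalytic subunit gene pka1 was under the filter, at 0.299 TPM in the double mutant and 0.0166 TPM in the wild type. Starts outside that window, or nearer to the start of another gene, are not in this level. The list's median log2 fold change was 0.05, beside 0.13 over all genes.

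The list of fbp1 activators had 8 genes, for the Atf1 and Pcr1 factors, the kinases Sty1 and Wis1 and the Php complex. Of these atf1, pcr1, sty1, wis1, php2, php3 and php5 did not pass, none was lower and 1 was higher. It was php4, a subunit better known for holding down iron-using genes when iron is short, with means of 51.8 ± 4.003 TPM in the double mutant and 38.5 ± 2.75 TPM in the wild type (SD, n = 3 each, log2 fold change 0.42, limma with Benjamini-Hochberg adjusted p = 0.0309). With TMM scaling none was higher and 1 was lower, namely php5 (log2 fold change -0.59, limma with Benjamini-Hochberg adjusted p = 0.0440). Of 7 genes of AMP-activated kinase and the hexokinases 3 were higher and none lower, namely hxk1, a hexokinase gene (log2 fold change 0.61), and the AMP-activated kinase subunit genes ssp2 (0.48) and amk2 (0.42). With TMM scaling none of these passed. Both list medians, 0.35 for the activator list and 0.34 for the kinase list, stood above the 0.13 of all genes.

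Of 12 genes for other enzymes of alternative carbon sources 11 were tested, 8 were higher and 1 was lower, with a median log2 fold change of 0.70, and with TMM scaling 4 were higher and 1 lower. The number higher was 4 without double-mutant replicate 1, 5 without double-mutant replicate 3 and 4 without wild-type replicate 1. The dihydroxyacetone kinase gene dak2, which acts after gld1 in glycerol use, had 4.47, 14.1 and 10.3 TPM in the double mutant, against 0.199, 0.710 and 0.202 TPM in the wild type (log2 fold change 3.45, SE 0.41, limma with Benjamini-Hochberg adjusted p = 0.000422). There is no overlap between the groups. The galactose genes gal10 and gal1 had log2 fold changes of 1.21 and 1.10, and the predicted hexitol dehydrogenase gene tms1 had one of 1.06. Because dak2 and tms1 stood under 1 TPM in the wild type, they reached the filter only through the double mutant. Smaller were the glucose dehydrogenase gene gcd1 at 0.79 and gpd1, the cytosolic glycerol-3-phosphate dehydrogenase, at 0.70, both lost with TMM scaling. The maltase gene mal1 was lower, with means of 4.82 ± 0.167 TPM in the double mutant and 7.94 ± 0.951 TPM in the wild type (SD, n = 3 each, log2 fold change -0.66, limma with Benjamini-Hochberg adjusted p = 0.0117).

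Of 7 genes for deacetylases and remodelling factors known to act at fbp1, 1 was higher and none lower, also with TMM scaling. It was snf22, a SWI/SNF ATPase gene, with 15.0, 15.3 and 15.1 TPM in the double mutant against 8.32, 9.23 and 9.66 TPM in the wild type. The groups do not overlap, and the log2 fold change was 0.71 (SE 0.13, limma with Benjamini-Hochberg adjusted p = 0.00487). Of the genes named from these lists, dak2, gal10, gal1, tms1 and snf22 kept their call without any 1 of the 6 libraries, as did sck1 with an adjusted p just under the threshold, and the others lost it without at least 1.

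The protein-coding genes with levels most like those of fbp1 over the 6 libraries, by the root mean square difference in log2(TPM + 0.5), were pat1 (0.376), shu1 (0.401), otg2 (0.455), SPAC16E8.05C (0.467) and mug97 (0.469). The nearest, pat1, the kinase gene that restrains meiosis, had 12.3, 15.8 and 11.7 TPM in the double mutant, against 0.598, 0.237 and 0.506 TPM in the wild type. These are descriptions of level in the coding start window, and none of the other 8 genes is among them. Starts of pat1 and the others outside that window, or nearer to the start of another gene, are not in these levels.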

How the data were processed

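CAGE libraries of 3 double-mutant and 3 wild-type samples were compared. The authors deposited RPM, labelled TPM with T for tags, scaled to the library total and given for a common set of 108138 tag clusters. The submitters' processing notes name build ASM294v2 and, without their roles, the tools bedtools 2.15.0, Bowtie 0.12.7 and CASAVA 1.6. A pooled signal per cluster, which the authors took over all libraries and deposited in their cluster table, was not tested. Clusters were defined over all libraries jointly, so a shift within a cluster cannot be seen.

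Tags per library were recovered from the step of 1 tag, of which 99.7% to 99.8% of nonzero values were whole multiples within 0.02 tags, and 91.2% to 92.3% of tags lay in clusters. Intervals (95%, exact, from tag numbers) and the floor of 3 tags per group cover counting error only, since tags lacking molecular identifiers may copy 1 molecule.

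Genes, coordinates and sequences are from the RefSeq annotation and genome of ASM294v3, a build of another name. With each chromosome cut in 4 stretches, 96.3% to 100% of promoter clusters over 5 TPM in a stretch began on a purine after a pyrimidine, and 70.0% to 81.1% began at the annotated start. The start base was taken 1 bp before the deposited summit. Cluster coordinates are as deposited, counted from 1.

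Upstream levels leave out clusters in the coding start window or body of another coding gene on that strand. Where windows of genes overlapped, long non-coding RNA genes included, the nearest start got the cluster. Antisense levels leave out clusters in a coding start window. The fits used limma 3.58.1 (empirical Bayes with trend, two-sided) over all features of a class with Benjamini-Hochberg adjustment at 0.05, and log2 fold changes on log2(TPM + 0.5) understate the change of low levels. Alternatives were other pseudocounts, filters, windows, TMM and median-of-ratios scaling, edgeR 4.0.16 and DESeq2 1.42.0 on recovered tags, leaving out libraries and a replicate block. Libraries of a group differed by more than counting noise (chi-square per cluster 6.37 to 26.5).

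The 9 genes, the gene lists and the tests were chosen with earlier results of these data known. Named were all 9 genes with their starts of at least 1 TPM in either group, and the 5 genes most like fbp1. From each list up to 6 called genes with the largest absolute log2 fold change were named. Outside that rule mal1 was named as the only lower gene of its list, and pka1 and mel1 as genes under the filter.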

Additional observations from a re-analysis of the deposited data

How the results depend on the processing

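The higher coding starts of fbp1, gld1 and inv1 and the lower one of gut2 kept their direction and their side of the threshold under all alternatives run. Depth limits the lowest levels, such as the coding start of agl1 with 2 tags in the wild type. With a filter of 0.25 TPM, or with none, more features were tested and more were called over all genes, namely 2857 and 3384 genes at coding starts in place of 1864, 11809 and 17753 clusters in place of 5201, 901 and 1094 genes upstream in place of 486, and 2657 and 3062 antisense in place of 1606. Tested then were 7024 and 9886 genes at coding starts in place of 5587, and 25487 and 108138 clusters in place of 11250. Upstream it was 1526 and 2629 genes in place of 794, and antisense 3222 and 4602 in place of 1872. Among the 9 genes these filters gave 23 and 22 called clusters in place of 14, 2 genes upstream under either in place of 1, and 6 and 8 genes antisense in place of 3. At the main filter 9 of their clusters in coding start windows, 7 intragenic, 2 upstream and 1 antisense were tested. No difference from the shares over all features was tested. Upstream windows that end at 1000 bp, which hold fewer starts, gave 163 of 308 genes.

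Scaling on the features of a class sets their own median near 0. Antisense calls among the 9 genes then came to 1 with TMM, median-of-ratios scaling, edgeR and DESeq2. The log2 fold change of agl1 antisense was -0.60, -0.63, -0.75 and -0.79 in that order, and that of fbp1 antisense was -0.40 in edgeR and -0.44 in DESeq2. Intragenic calls came to 5 with TMM, median-of-ratios scaling and DESeq2, and tup12 had -0.091 with TMM, -0.12 with median-of-ratios scaling, -0.10 in edgeR and -0.13 in DESeq2. Scaling factors taken from the coding-start levels, an alternative chosen after seeing the data, kept all 3 antisense and all 8 intragenic calls.

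Without 1 library at a time, called features ranged from 1261 to 1731 at coding starts, 3954 to 5327 clusters, 421 to 522 upstream, 1405 to 1719 antisense and 1643 to 1865 intragenic. Tested then were 5507 to 5661 at coding starts, 10710 to 11647 clusters, 746 to 820 upstream, 1703 to 2003 antisense and 2382 to 2558 intragenic. Called among the 9 genes were 4 to 5 at coding starts, 1 to 2 upstream, 2 to 3 antisense and 7 to 8 intragenic, and 11 to 17 clusters. The difference in the upstream share of fbp1 ranged from -55.8 to -51.5 points. Replicate numbers are not tied to a culture in the labels, and the deviations of libraries with 1 number from their group means had an r of -0.335 to -0.209 across genes. Between unlike numbers r was 0.427 for double-mutant replicate 2 with wild-type replicate 1. It was 0.410 for double-mutant 1 with wild-type 3 and 0.385 for double-mutant 3 with wild-type 2. The remaining pairs had -0.196 to -0.134. The replicate block joins libraries of 1 number, and other pairings were not fitted. With a replicate block 966 genes were higher and 283 lower at coding starts, tup11 had an adjusted p of 0.0589 in limma, and of the other enzymes of alternative carbon sources 4 were higher and none lower. For calls that ended, the cause was not tested except where the scaling or filter itself sets it.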

Other observations

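Antisense levels of 6 of the 9 genes stood under the filter of 1 TPM. Antisense to rst2, 20 tags were found in the double mutant and none in the wild type, and antisense to tup12 there were 6 in the double mutant and none in the wild type. Antisense to scr1 there were 97 tags in the double mutant and 11 in the wild type, from 13 clusters of which none reached 1 TPM in either group. With a filter of 0.25 TPM, where 2657 of 3222 antisense levels were called, scr1 had a log2 fold change of 1.49 (SE 0.20), gut2 one of 1.01 (SE 0.22) and inv1 one of 0.60 (SE 0.22), with limma and Benjamini-Hochberg adjusted p-values of 1.05e-05, 0.000756 and 0.0224. For gld1 it was 0.29 (SE 0.23) and did not pass (adjusted p = 0.240 in limma). Inside fbp1, an antisense start at 1155 held 52 tags in the double mutant and 1 in the wild type, singled out after its values were seen. The alpha-galactosidase gene mel1 had 0.301, 0.302 and 0.201 TPM in the double mutant, against 0.0498, 1.10 and 0.152 TPM in the wild type, where replicate 2 stood apart.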
